A study of Homo sapiens with 8 samples.

Results

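TPM4 and 9 further genes of the actomyosin cytoskeleton were followed in human colorectal cancer cells after knockdown of NAT10. The 10 genes were TPM1, TPM2, TPM3 and TPM4, the myosin II subunits MYL6, MYL9 and MYH9, and the filament crosslinkers ACTN1, ACTN4 and FLNA. They were named as a list of 10 among the 17309 genes of the count table, and all 10 were found in it and passed the filter on low counts. The list was chosen from the values of TPM4, which was picked out for its higher level after NAT10 knockdown in both cell lines. Those values of TPM4 are therefore given as a description without a test.

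RNA-seq of polyadenylated RNA (single-end reads of 50 bases) was performed on SW480 and DLD-1 cells, which are established lines of human colorectal cancer cells. Each line carried either a control hairpin (shControl) or a hairpin against NAT10 (shNAT10), delivered by lentivirus in all groups, so that no uninfected cells were among the samples. The 4 groups were SW480 shControl, SW480 shNAT10, DLD-1 shControl and DLD-1 shNAT10, with 2 libraries in each and 8 in all. The labels call the libraries of a group bio replicates without naming separate cultures or infections, so the p-values measure the spread between these libraries, which may be technical. Which NAT10 hairpin was sequenced is not given in the labels, and an effect of knockdown and an effect particular to that hairpin cannot be told apart.

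Tropomyosins are coiled-coil dimers that lie end to end along actin filaments and set which motors and binding proteins reach them. Nonmuscle myosin II pulls on such filaments through its heavy chains, of which MYH9 encodes one, and through its light chains, while alpha-actinins and filamins tie filaments into bundles and networks. In intestinal epithelial cells this system carries tension at junctions and adhesions and drives cell shape and movement. NAT10 is an RNA acetyltransferase that writes N4-acetylcytidine.

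The libraries held 15147805 to 17271336 estimated counts. NAT10 itself, measured to check the labels, stood at 122 and 123 CPM (the count scaled to the effective library size) in SW480 shControl and at 23.6 and 27.9 CPM in SW480 shNAT10. In DLD-1 it stood at 121 CPM in both shControl libraries and at 59.0 and 54.4 CPM in shNAT10. The knockdown was deeper in SW480, with 0.21 of the control level left against 0.47 in DLD-1 (difference of log2 fold changes −1.16, edgeR adjusted p = 0.0015).

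The replicates of SW480 shNAT10 differed most, with a chi-square of 9.35 per degree of freedom over genes against 3.21 to 4.44 in the other groups. Of 7 colon epithelial markers, the summed level was 2980 to 3700 CPM in SW480 and 6970 to 7530 CPM in DLD-1. All 7 had counts in every group, and KRT8 and KRT18 made up most of the sum. KRT20 was close to 0 in SW480, with means of 0.088 CPM in shControl and 0.15 CPM in shNAT10, against 19.1 CPM in DLD-1 shControl. The 5 fibroblast markers summed to 1.51 to 4.80 CPM, with DCN, LUM or COL1A2 at 0 in both libraries of each group. The 5 smooth muscle markers summed to 0.296 to 3.41 CPM in 7 libraries and to 6.48 CPM in DLD-1 shNAT10 replicate 1. That library held 32 counts of DES, 40 of MYH11, 24 of ACTG2 and 11 of CNN1, where the other DLD-1 libraries held at most 2, 3, 1 and 0.

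TPM4 encodes a tropomyosin of nonmuscle cells and lies on chromosome 19. In the GENCODE annotation of hg38, its transcript NM_001145160.2 spans chr19:16067538-16102943 on the plus strand and the more abundant NM_003290.3 spans chr19:16076306-16103005, so that the gene has separate start sites. RefSeq promoter sequences (GRCh38.p14) were matched by symbol for 9 of the 10 genes, with 17 start sites in all, and none was matched for MYL9. The sequences were searched for the CArG box, the binding motif of serum response factor, which governs many actin cytoskeleton genes. A CArG box stood in 3 of the 17 promoters, belonging to TPM4, FLNA and ACTN1, against 1.3% of 34796 RefSeq promoters of the same 300 bases. The 250 bases before the start site of NM_001145160.2 and of FLNA are shown. Both hold the box. TPM4 and FLNA are shown for their differences in CPM after knockdown in SW480, the largest among the 10 genes. That choice depends on the measure, since by log2 fold change TPM2 (0.27), without the box, changed more than FLNA (−0.24). TPM4 was higher and FLNA lower. TPM4 was picked for its rise, and a difference in CPM grows with level, which in SW480 was highest for FLNA. ACTN1, which also holds a box, moved by −0.019 on the log2 scale there. A link between the box and the change was not tested. The box is in capitals.
TPM4 promoter, chr19:16067288-16067537, plus strand: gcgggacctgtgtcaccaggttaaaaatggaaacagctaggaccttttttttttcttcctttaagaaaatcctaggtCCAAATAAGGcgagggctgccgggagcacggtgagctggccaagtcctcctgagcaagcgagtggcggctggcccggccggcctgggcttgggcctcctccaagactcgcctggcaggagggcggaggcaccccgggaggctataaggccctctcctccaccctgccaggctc
FLNA promoter, chrX:154374635-154374884, minus strand: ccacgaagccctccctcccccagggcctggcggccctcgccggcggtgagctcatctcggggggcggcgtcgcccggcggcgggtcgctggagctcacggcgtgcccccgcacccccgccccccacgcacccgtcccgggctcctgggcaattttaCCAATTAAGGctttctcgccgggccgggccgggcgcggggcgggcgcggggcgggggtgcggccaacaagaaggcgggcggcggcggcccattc

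The TPM4 box lay 173 to 164 bases before the start site and the FLNA box 94 to 85 bases before it. The third was in an ACTN1 promoter, 171 to 162 bases before a start site within 50 bases of which no matched ACTN1 transcript began. The other windows of TPM4, including the one that holds the first base of NM_003290.3, had no such match. The TEAD core CATTCC, read on both strands, stood in 2 of the 17 promoters (MYH9 and the same ACTN1 promoter) against 14.0% of all promoters. The GC box GGGCGG, read on both strands, stood in 14 of the 17 against 44.9%, and the TATA box TATAAA, read likewise, in 1 against 11.6%. Each match describes the letters of the window and was not tested for binding.

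TPM4 was higher after NAT10 knockdown in both lines. In SW480 it stood at 416 and 398 CPM in shControl and at 666 and 697 CPM in shNAT10. In DLD-1 it stood at 421 and 382 CPM in shControl and at 479 and 492 CPM in shNAT10. Both shNAT10 libraries lay above both shControl libraries in each line, and the shControl libraries of the lines overlapped. The log2 fold change was 0.74 (SE 0.0673, 1.68-fold) in SW480 and 0.27 (SE 0.0673, 1.21-fold) in DLD-1, with n = 2 libraries per group. In RNA from a whole culture, a change in the share of cells that express a gene and a change in RNA per cell cannot be told apart.

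By log2 fold change it stood 145th of 13619 tested genes in SW480 and 795th in DLD-1. The change of TPM4 in DLD-1 was 1.21-fold, and its counts were high (6446 to 11920 per library). Both ranks describe a gene chosen for its higher level.

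The change of TPM4 was larger in SW480 than in DLD-1 by 0.47 on the log2 scale (SE 0.0949). This difference rests on the values from which TPM4 was chosen and is likewise given without a test. With each library left out it ran from 0.41 to 0.54. NAT10 was left at a lower level in SW480 than in DLD-1, and the cell line and the depth of knockdown cannot be told apart.

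**Figure D1:**
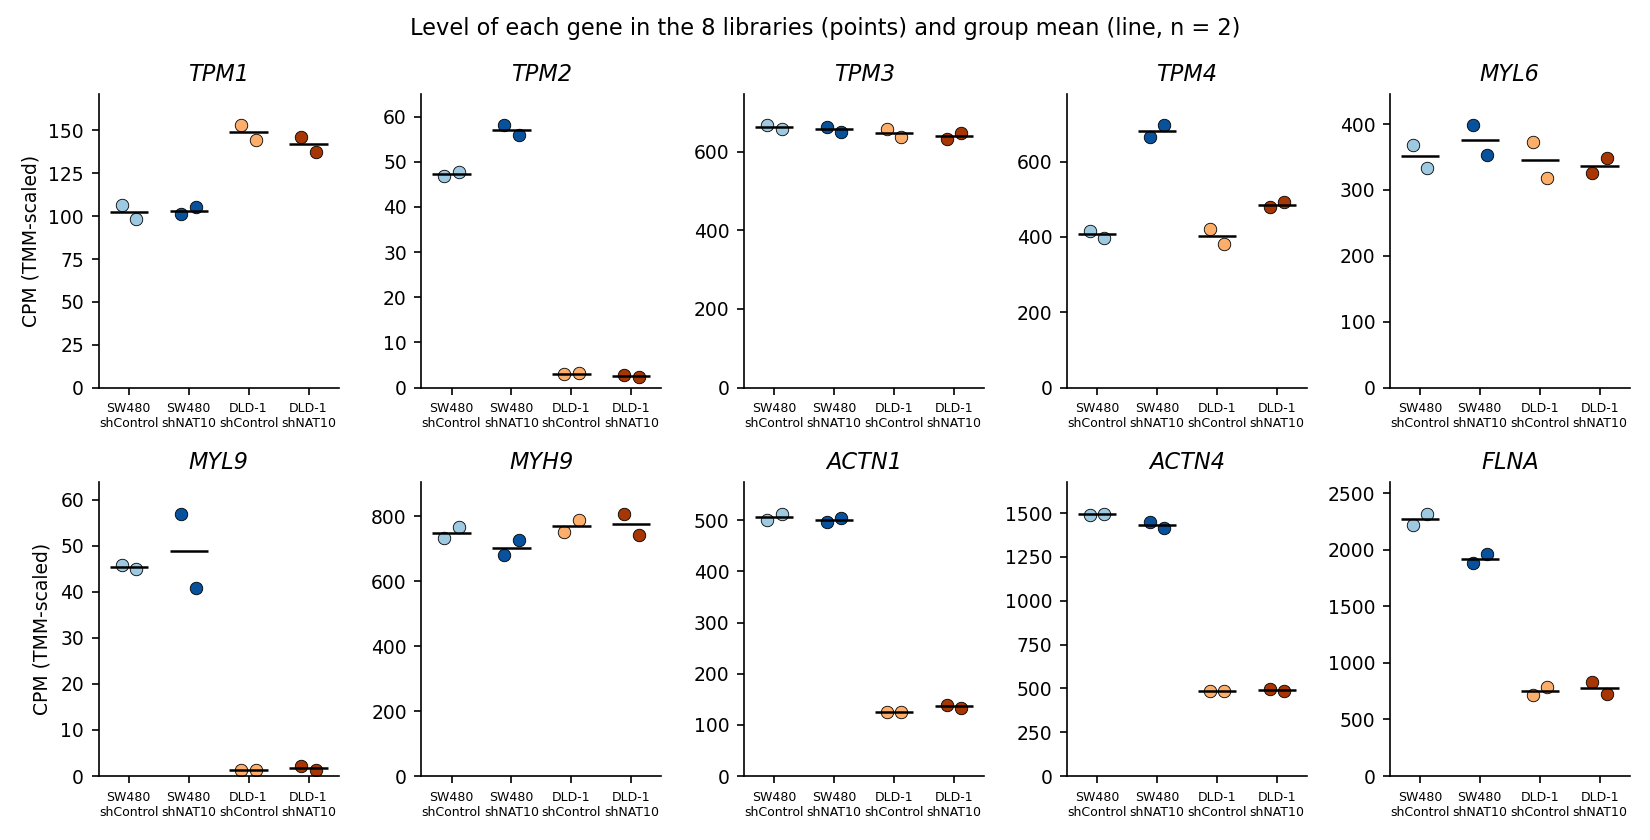
Level of each of the 10 genes in CPM (y axis, from 0) in the 4 groups (x axis); each point is a library and each line the mean of the 2 libraries. TPM4 sits at 382 to 421 CPM in the shControl libraries of both lines and at 666 and 697 CPM in SW480 shNAT10, while TPM2, MYL9, ACTN1, ACTN4 and FLNA separate the lines.

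None of the 9 other genes passed an adjusted p of 0.05 after knockdown in SW480, where 1.68% of the 13619 tested genes did. At an unadjusted p under 0.05, TPM2 and FLNA passed (2 of 9), against 19.3% of all genes. DESeq2 called 0 of 9 as well. The median log2 fold change of the 9 was −0.014, with 4 positive and 5 negative, beside −0.0095 over all tested genes.

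TPM2, the beta-tropomyosin gene, stood at 46.8 and 47.8 CPM in SW480 shControl and at 58.2 and 55.9 CPM in SW480 shNAT10. The groups did not overlap. The log2 fold change was 0.27 (SE 0.0789, unadjusted p = 0.0042, edgeR adjusted p = 0.098). The adjusted p ran from 0.025 to 0.54 over the alternatives. By the limits the study used, a fold above 1.2 or below 0.83 with an unadjusted p under 0.05, TPM2 was the only one of the 9 that passed, against 9.08% of all genes.

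FLNA encodes filamin A, which joins actin filaments into networks and ties them to the membrane. It stood at 2218 and 2319 CPM in SW480 shControl and at 1880 and 1957 CPM in SW480 shNAT10. The shNAT10 libraries lay below the shControl libraries. The log2 fold change was −0.24 (SE 0.0783, unadjusted p = 0.0080, edgeR adjusted p = 0.13), with adjusted p from 0.022 to 0.63 over the alternatives.

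The remaining 7 genes had log2 fold changes of −0.09 to 0.11 in SW480, with edgeR adjusted p of 0.50 to 0.94. TPM3, the tropomyosin gene with the highest count beside TPM4, stood at 668 and 659 CPM in shControl and at 662 and 651 CPM in shNAT10. TPM1 stood at 106 and 98.3 CPM in shControl and at 101 and 105 CPM in shNAT10. Groups overlapped for both of these genes.

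Among the myosin II genes in SW480, the heavy chain gene MYH9 stood at 732 and 768 CPM in shControl and at 681 and 727 CPM in shNAT10 (log2 fold change −0.09, SE 0.0691, edgeR adjusted p = 0.50). The essential light chain gene MYL6 stood at 369 and 333 CPM in shControl and at 399 and 354 CPM in shNAT10, with overlap. The regulatory light chain gene MYL9 stood at 45.9 and 45.0 CPM in shControl and at 57.0 and 40.9 CPM in shNAT10. The shNAT10 libraries of MYL9 lay on either side of the controls, and 1 library set its value. Without SW480 shNAT10 replicate 2 the log2 fold change of MYL9 went from 0.11 to 0.33.

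ACTN1 and ACTN4 encode the nonmuscle alpha-actinins, which bundle actin filaments. ACTN1 stood at 500 and 513 CPM in shControl and at 496 and 504 CPM in shNAT10 (log2 fold change −0.019, SE 0.0589). ACTN4 stood at 1488 and 1498 CPM in shControl and at 1451 and 1414 CPM in shNAT10 (log2 fold change −0.06, SE 0.0614). The ACTN1 groups overlapped, while the ACTN4 groups did not, and neither passed the test (edgeR adjusted p = 0.90 and 0.63).

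In DLD-1 none of the 9 other genes passed an adjusted p of 0.05 after knockdown, where 0.0147% of tested genes did. At an unadjusted p under 0.05, edgeR again called 0 of 9, against 5.96% of all genes, and by the limits of the study 0 of 9, against 2.68%. DESeq2 and limma called 0 of 9 too. The median of the 9 was 0.011 on the log2 scale, beside 0.0 over all tested genes.

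ACTN1 had the smallest p of the 9 in DLD-1, at 125 CPM in both shControl libraries and 140 and 134 CPM in shNAT10 (log2 fold change 0.13, SE 0.0622, unadjusted p = 0.052, edgeR adjusted p = 0.84). FLNA stood at 715 and 791 CPM in shControl and at 828 and 727 CPM in shNAT10, with overlap. TPM2 was low in this line, at 2.94 and 3.26 CPM in shControl and 2.83 and 2.30 CPM in shNAT10, from 35 to 55 counts per library. Its groups did not overlap, but the log2 fold change of −0.27 had an SE of 0.182.

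MYL9 was low in DLD-1, with 22 counts in each shControl library and 37 and 21 counts in shNAT10. The library with 37 counts was DLD-1 shNAT10 replicate 1, the one with the smooth muscle markers named above, and their part in the value of MYL9 was not tested. Without that library the log2 fold change of MYL9 in DLD-1 was 0.09, against 0.47 with it. That of TPM4 was 0.29 without it, against 0.27.

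TPM1, TPM3, MYH9, MYL6 and ACTN4 had log2 fold changes of −0.07 to 0.015 in DLD-1. TPM1 stood at 153 and 145 CPM in shControl and at 146 and 138 CPM in shNAT10. TPM3 stood at 658 and 638 CPM in shControl and at 631 and 646 CPM in shNAT10. MYH9 stood at 752 and 788 CPM in shControl and at 809 and 743 CPM in shNAT10. The groups of all 3 overlapped.

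Of the 9 genes other than TPM4, none passed an adjusted p of 0.05 in edgeR for a difference between the knockdown effects of the lines, where 0.00734% of tested genes did. DESeq2 called 0 of the 9 as well. At an unadjusted p under 0.05 there were 2 of 9, against 9.38% of all genes. These were TPM2, with a difference of 0.53 (SE 0.198, unadjusted p = 0.017, edgeR adjusted p = 0.49), and FLNA, with a difference of −0.29 (SE 0.111, unadjusted p = 0.021, edgeR adjusted p = 0.49).

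**Figure D2:**
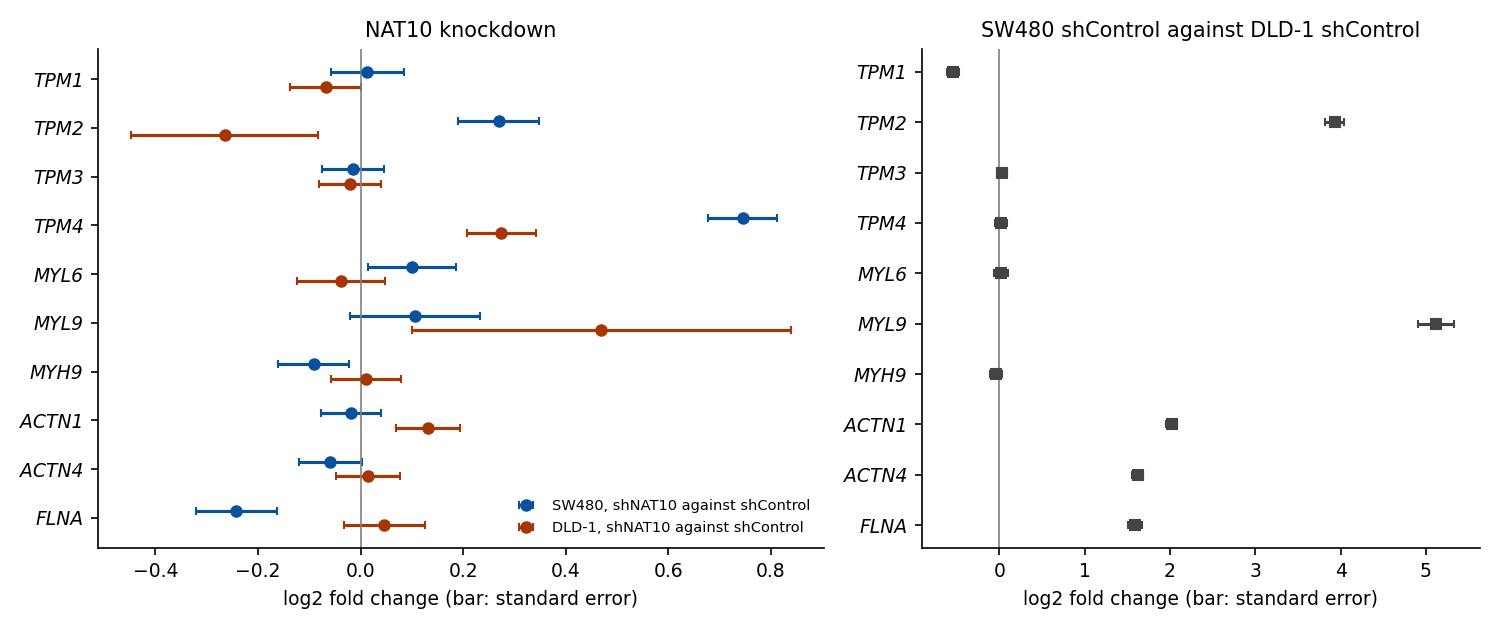
Log2 fold change of each gene (x axis) with its standard error (bars), for shNAT10 against shControl in each line on the left and for SW480 shControl against DLD-1 shControl on the right. After knockdown TPM4 lies at 0.74 in SW480 and 0.27 in DLD-1 while the other genes lie between −0.27 and 0.47, and between the lines MYL9 and TPM2 lie at 5.12 and 3.93.

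The make-up of the tropomyosin pool was read from FPKM, which divides by transcript length and allows genes to be compared. The FPKM values of SW480 shNAT10 replicate 2 were incomplete, which left 7 libraries. TPM4 made up 34.5% and 33.8% of the summed tropomyosin FPKM in SW480 shControl and 45.0% in the SW480 shNAT10 library. In DLD-1 it made up 36.0% and 34.5% in shControl and 39.8% and 40.6% in shNAT10.

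TPM3 exceeded TPM4 in all 4 shControl libraries, with 41.3% to 43.7% of the pool. In the SW480 shNAT10 library the order was turned, with TPM4 at 298 FPKM and TPM3 at 224 FPKM. In DLD-1 shNAT10 the pair was level, at 218 and 225 FPKM for TPM4 and 218 and 223 FPKM for TPM3. The summed tropomyosin level was 556 and 543 FPKM in SW480 shControl and 663 FPKM in the SW480 shNAT10 library, and in DLD-1 it was 528 and 502 FPKM in shControl and 547 and 553 FPKM in shNAT10.

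**Figure D3:**
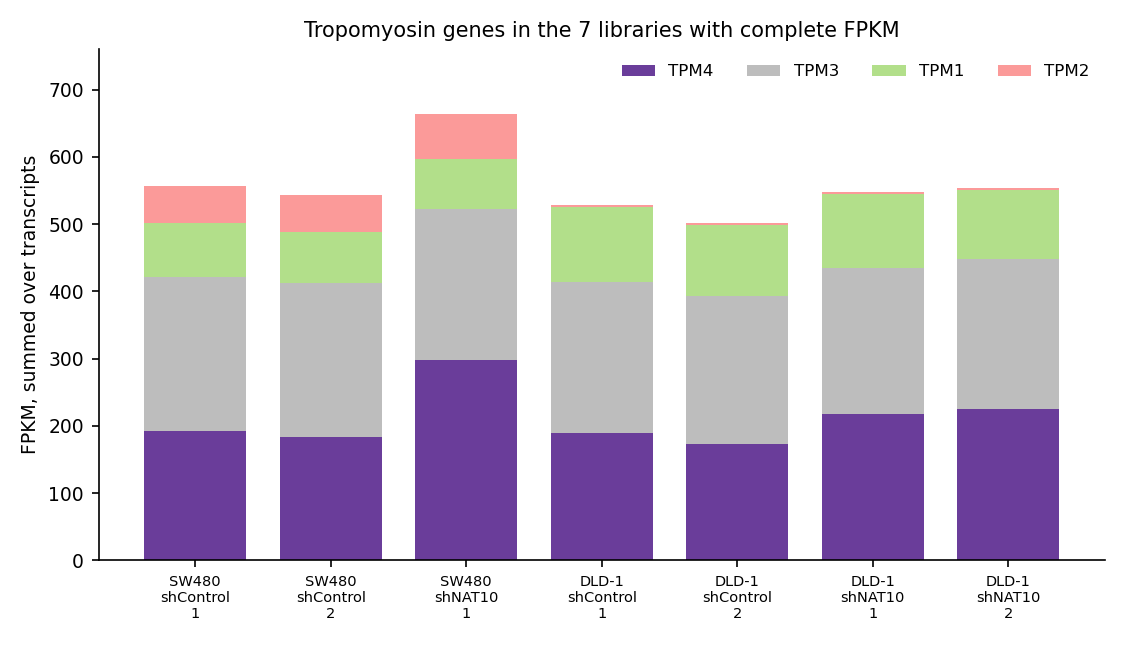
Summed FPKM of the 4 tropomyosin genes (y axis, from 0) in each of the 7 libraries with complete FPKM (x axis, with replicate number); the colours are the genes. TPM4 is the largest block in SW480 shNAT10, at 45.0% of the sum, and TPM2 is visible in SW480 alone, with 0.468% to 0.70% of the sum in DLD-1.

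The higher level of TPM4 was seen in its main transcript. Of 9 TPM4 transcripts in the table, 3 held at least 5% of its counts in any library. NM_003290.3 held 68.6% to 93.3% of the counts. In SW480 it stood at 285 and 317 CPM in shControl and at 540 and 556 CPM in shNAT10 (1.82-fold between means), and in DLD-1 at 346 and 356 CPM in shControl and at 434 and 438 CPM in shNAT10 (1.24-fold). Groups did not overlap in either line.

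NM_001145160.2, which starts at the promoter with the CArG box, stood at 30.9 and 29.9 CPM in SW480 shControl and at 49.4 and 54.2 CPM in SW480 shNAT10 (1.70-fold). In DLD-1 it stood at 22.5 and 18.5 CPM in shControl and at 22.9 and 30.2 CPM in shNAT10 (1.29-fold). The shNAT10 values were above those of shControl in both lines. These transcript folds are descriptions of the gene chosen for its change.

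The predicted transcript XM_024451681.1 varied between replicates, at 88.0 and 42.5 CPM in SW480 shControl and at 44.1 and 0.0 CPM in DLD-1 shControl, so that its values cannot be ordered by group. The authors' counting divided reads among transcripts, and the shares are estimates. Of the 50-base windows of NM_003290.3, 23.1% also occur in transcripts of other genes, mainly the processed pseudogenes AC098614.1 and AF201337.1, and the TPM4 counts are uncertain to the extent that reads were assigned there. The share was 9.41% for TPM3, 6.77% for MYL6 and 0.0 to 2.58% for the others.

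**Figure D4:**
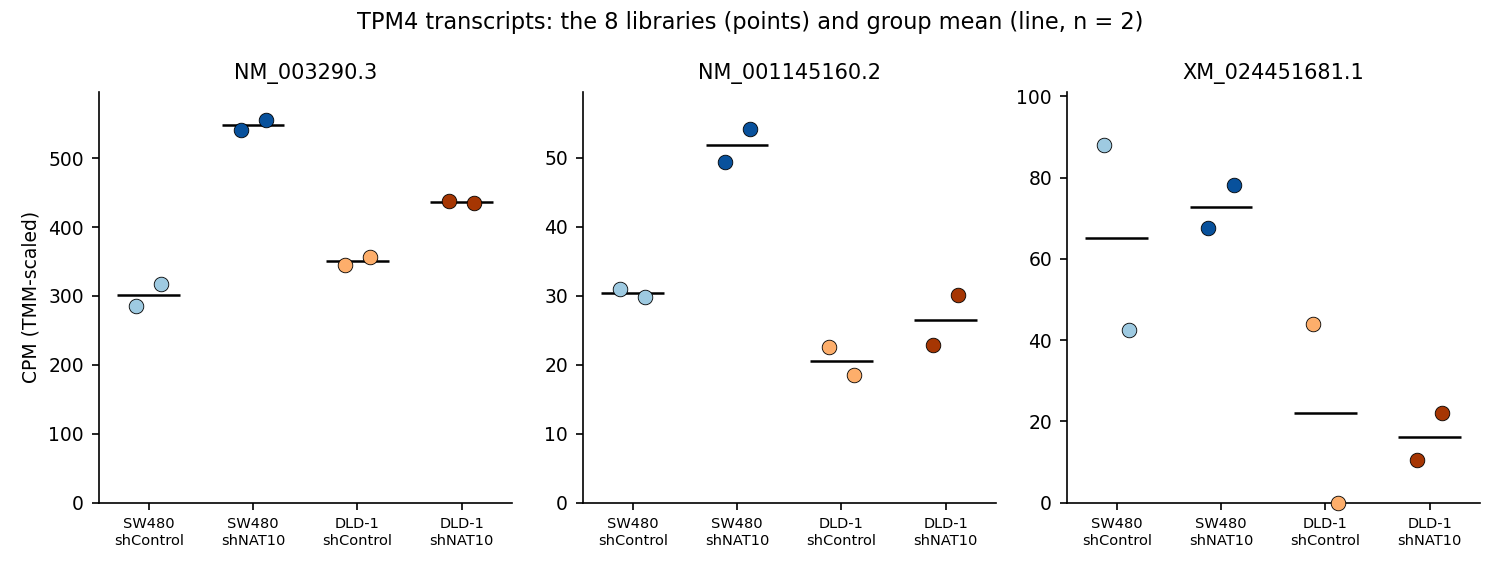
CPM of the 3 leading TPM4 transcripts (y axis, own scale per panel, from 0) in the 4 groups (x axis); points are libraries and lines the means of 2. NM_003290.3 and NM_001145160.2 are higher in shNAT10 in both lines without overlap, while XM_024451681.1 is spread between replicates.

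The shControl groups were compared to see how these genes differ between the lines without knockdown. Between SW480 shControl and DLD-1 shControl, 6 of the 10 passed an adjusted p of 0.05, 5 higher and 1 lower in SW480, where 73.8% of all tested genes passed. The share of the 10 was thus below the background. The median of the 10 was 0.81 on the log2 scale beside 0.011 over all tested genes.

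MYL9 stood at 45.9 and 45.0 CPM in SW480 shControl and at 1.3 CPM in both DLD-1 shControl libraries, 34.8-fold higher in SW480 (log2 fold change 5.12, SE 0.212, edgeR adjusted p = 2e-11). TPM2 stood at 46.8 and 47.8 CPM against 2.94 and 3.26 CPM (15.2-fold, log2 3.93, SE 0.115, adjusted p = 4.5e-13). Both genes are known for high levels in contractile cells. The defining smooth muscle markers summed to 2.58 to 2.93 CPM in SW480 shControl and 0.296 to 0.529 CPM in DLD-1 shControl, mostly DES in SW480, with CNN1 and ACTG2 at 0 in all 4 of these libraries.

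The 3 crosslinker genes were higher in SW480. ACTN1 stood at 500 and 513 CPM against 125 CPM in both DLD-1 libraries (4.06-fold, adjusted p = 7.7e-13). ACTN4 stood at 1488 and 1498 CPM against 483 and 485 CPM (3.08-fold, adjusted p = 1e-11). FLNA stood at 2218 and 2319 CPM against 715 and 791 CPM (3.01-fold, adjusted p = 1.9e-10).

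TPM1 was lower in SW480, at 106 and 98.3 CPM against 153 and 145 CPM in DLD-1 (log2 fold change −0.54, SE 0.0699, edgeR adjusted p = 6.3e-06). TPM3, TPM4, MYL6 and MYH9 differed by −0.04 to 0.03 and did not pass (adjusted p = 0.63 to 0.84). Of the epithelial markers, EPCAM (141 against 640 CPM) and CDH1 (97.4 against 437 CPM) were lower in SW480. KRT8, KRT18, KRT20 and CDX2 were lower too, while VIL1 was higher (14.5 against 5.42 CPM). The part of these markers in the differences above was not tested.

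In order of FPKM in SW480 shControl, the 10 genes were MYL6 (mean 899), ACTN4 (438), FLNA (277), TPM3 (229), TPM4 (188), ACTN1 (151), MYH9 (105), TPM1 (77.6), TPM2 (54.9) and MYL9 (18.3). In DLD-1 shControl the order was MYL6 (854), TPM3 (222), TPM4 (182), ACTN4 (141), TPM1 (108), MYH9 (107), FLNA (91.4), ACTN1 (36.7), TPM2 (3.37) and MYL9 (0.52). The libraries of neighbours in either order did not overlap, except those of TPM1 and MYH9 in DLD-1 (105.5 and 110.1 against 104.1 and 110.2 FPKM).

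For TPM1 and FLNA, the lines also differed in the shares of counts that transcripts held. NM_001330344.2 held 59.0% to 63.2% of the TPM1 counts in the 4 DLD-1 libraries and 23.5% to 32.8% in the 4 SW480 libraries. NM_001018006.2 held 23.2% to 26.3% in DLD-1 and 49.5% to 56.9% in SW480. For FLNA, NM_001456.3 held 28.4% to 37.8% of counts in DLD-1 and 14.8% to 18.3% in SW480. In none of these did the lines overlap, and whether this holds beyond these libraries was not tested.

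Other genes of the actin system were taken from lists of 96 genes, of which 95 were in the table and 92 were tested. In SW480, 4 of the 92 passed an adjusted p of 0.05, all lower after knockdown, against 1.68% of all tested genes. At an unadjusted p of 0.05, 26 passed, of which 20 were lower and 6 higher, against 19.3% of all tested genes. The median of the 92 was −0.07 on the log2 scale beside −0.0095 over all tested genes, with 62 negative and 30 positive. In DLD-1 none passed the adjusted test, in edgeR, DESeq2 or limma, and 4 passed the unadjusted one, against 5.96% of all tested genes.

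The 4 genes that fell in SW480 all belonged to the list of 13 SRF and YAP factors and targets, whose median was −0.19. The lists were chosen with earlier results of these data known, so this grouping is given as a description. ANKRD1, a much used YAP target, stood at 247 and 216 CPM in shControl and at 159 and 161 CPM in shNAT10 (log2 fold change −0.53, SE 0.0752, edgeR adjusted p = 0.0032). TEAD1, a DNA-binding partner of YAP, stood at 299 and 319 CPM in shControl and at 206 and 255 CPM in shNAT10 (log2 fold change −0.42, SE 0.0873, adjusted p = 0.03). In both, the shNAT10 libraries lay below the shControl libraries.

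AMOTL2, an angiomotin that binds YAP, stood at 169 and 171 CPM in SW480 shControl and at 136 and 140 CPM in shNAT10 (log2 fold change −0.30, edgeR adjusted p = 0.043). AXL, a receptor tyrosine kinase, stood at 175 and 172 CPM in shControl and at 147 and 138 CPM in shNAT10 (log2 fold change −0.28, adjusted p = 0.046). The shNAT10 libraries again lay below the controls. The count of 4 both rose and fell with the library left out, as did the count over all tested genes. With all libraries, upper-quartile scaling called ANKRD1 and TEAD1 but not AMOTL2 or AXL. Keeping every gene with a count, or fitting SW480 alone, called only ANKRD1. Without SW480 shNAT10 replicate 2 the log2 fold changes were −0.54 for ANKRD1, −0.58 for TEAD1, −0.32 for AMOTL2 and −0.24 for AXL. The difference between the lines did not pass for any of the 4 (edgeR adjusted p = 0.49 to 0.87). That of TEAD1 was −0.33 on the log2 scale and −0.50 without SW480 shNAT10 replicate 2.

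In DLD-1, ANKRD1 and AXL were low, at 1.94 and 2.37 CPM and at 1.29 and 1.24 CPM in shControl, and their shNAT10 values were 1.65 and 1.77 CPM and 1.18 and 1.18 CPM. TEAD1 stood at 191 and 209 CPM in shControl and at 187 and 190 CPM in shNAT10. AMOTL2 stood at 169 and 154 CPM in shControl and at 158 and 146 CPM in shNAT10. None of the 4 passed the test in this line (edgeR adjusted p = 0.92 to 1.0).

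No actin gene passed the adjusted test after knockdown. ACTB, which encodes beta-actin, stood at 2518 and 2390 CPM in SW480 shControl and at 3073 and 2622 CPM in SW480 shNAT10 (log2 fold change 0.21, unadjusted p = 0.023, edgeR adjusted p = 0.19). ACTG1, which encodes gamma-actin, stood at 2128 and 2024 CPM in shControl and at 2115 and 1965 CPM in shNAT10. The ACTB groups did not overlap and the ACTG1 groups did.

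ACTA2, the smooth muscle alpha-actin gene, was low, at 2.76 and 2.81 CPM in SW480 shControl and at 4.41 and 4.74 CPM in SW480 shNAT10 (log2 fold change 0.72, SE 0.203, unadjusted p = 0.0034, edgeR adjusted p = 0.091). In DLD-1 it stood at 2.94 and 3.20 CPM in shControl and at 4.65 and 3.35 CPM in shNAT10, and its log2 fold change of 0.39 was 0.13 without DLD-1 shNAT10 replicate 1, the library with smooth muscle markers. For ACTA1, the skeletal muscle alpha-actin gene, the SW480 shControl libraries held 1 and 2 counts and both SW480 shNAT10 libraries 0, which is within the 3 counts that a count of 0 allows.

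The 5 genes other than the members in the list of tropomyosins and myosin II, all of them myosin genes, had a median of −0.04 in both knockdowns. None passed. The 13 tested crosslinkers and filament binders had a median of −0.09 in SW480 and −0.011 in DLD-1, the 25 genes of filament ends, assembly and turnover −0.04 and −0.04, and the 15 of focal adhesion −0.09 and 0.0098. None of these passed the adjusted test in edgeR in either line.

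**Figure D5:**
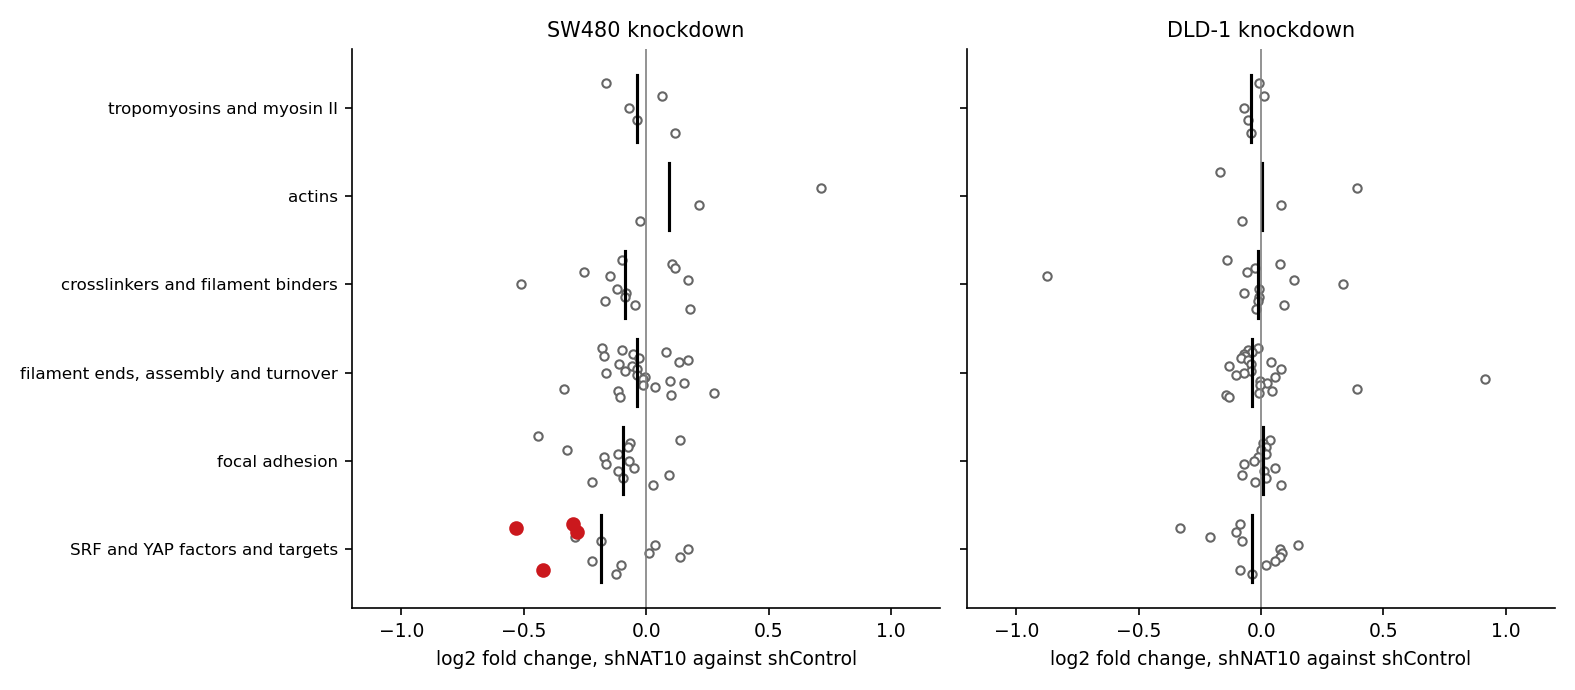
Log2 fold change of each tested gene of 6 lists (x axis) after knockdown in SW480 (left) and DLD-1 (right); open points are genes, filled points passed an adjusted p of 0.05 in edgeR, and black bars are list medians. The 4 filled points are ANKRD1, TEAD1, AMOTL2 and AXL in SW480, and 3 points beyond 1.2 on either side (ACTA1, TMOD1 and FERMT2, all of low counts in that line) are not shown.

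Between the lines 79 of the 92 passed, 49 higher and 30 lower in SW480, where 73.8% of all tested genes passed. The largest differences in each list included FLNC, a muscle filamin gene, with 3057 and 3335 counts in SW480 shControl and 1 and 5 counts in DLD-1 shControl. FERMT2, the kindlin-2 gene of focal adhesions, had 870 and 862 counts against 15 and 3. EVL, of the Ena/VASP family, had 61.9 and 49.9 counts against 1 and 0.

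The actin binders TAGLN and CALD1 were 8.05-fold and 7.68-fold higher in SW480, and MYLK, the myosin light chain kinase gene, 9.39-fold (edgeR adjusted p = 1.6e-11, 2.4e-12 and 3e-09). AXL stood at 136-fold and ANKRD1 at 107-fold above DLD-1 (adjusted p = 1.6e-15 and 3.5e-15). EGR1, an immediate early target of serum response factor, was lower in SW480 by 3.19-fold (adjusted p = 1.5e-10). TMOD2, a tropomodulin that caps filaments bound by tropomyosin, was 4.77-fold higher (adjusted p = 6.8e-09).

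Smaller differences passed in the lists of tropomyosins, myosins and actins. MYL12A was 1.35-fold and MYH10 1.3-fold higher in SW480, and MYH14 was 1.32-fold lower (edgeR adjusted p = 0.00013, 0.0019 and 0.0015). ACTB was 1.2-fold and ACTG1 1.22-fold higher in SW480 (adjusted p = 0.011 and 0.0029). ACTA1 was close to 0 in SW480 shControl (1 and 2 counts) and had 12 and 14 counts in DLD-1 shControl. The focal adhesion genes LIMS1 and TGFB1I1 were 3.07-fold and 2.96-fold higher (adjusted p = 2.7e-10 and 1.4e-07). TMOD1, another tropomodulin gene, had 15.9 and 26.7 estimated counts against 0 and 1.89.

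The 5 genes whose log2 CPM followed that of TPM4 most closely over the 8 libraries were POLR2D, ATP6V1G1, AFG3L2, C9orf78 and ZDHHC16, with Pearson r of 0.98, 0.98, 0.98, 0.96 and 0.94. POLR2D encodes an RNA polymerase II subunit, ATP6V1G1 a subunit of the vacuolar proton pump, AFG3L2 a mitochondrial protease and ZDHHC16 a palmitoyltransferase. POLR2D had group means of 62.2 and 81.2 CPM in SW480 shControl and shNAT10 and of 60.4 and 68.5 CPM in DLD-1. They are the highest values of r among all other tested genes, over libraries that share 4 groups, and are given as a description. None of the 9 other listed genes was close, with r from −0.66 for MYH9 to 0.50 for MYL6.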

How the data were processed

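The values used were estimated counts per RefSeq transcript, which the authors deposited as one table of 8 libraries, and FPKM per library, which the authors deposited from the same processing. The submitters' processing notes name HISAT2 2.0.4, Bowtie2 2.2.5, RSEM 1.2.12 and hg38. Transcript counts were summed per gene and rounded. Of gene identifiers, 99.3% were paired with a RefSeq symbol. Genes were filtered with filterByExpr (minimum count 10, minimum total 15), scaled by TMM and fitted as 4 groups with the quasi-likelihood test of edgeR 4.0.16 in R 4.3.3, with Benjamini-Hochberg adjustment over 13619 genes. Each standard error was taken as |log2 fold change| over the root of the F statistic. CPM used TMM-scaled library sizes. The steps were tested on simulated data.

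Alternatives were upper-quartile scaling, other filters, DESeq2 1.42.0, single-comparison fits, a replicate block, limma 3.58.1 on log2(FPKM + 1), the limits of the study and each library left out. The limma fit held the 7 libraries with complete FPKM, and so 1 library of SW480 shNAT10. The members and lists were chosen with earlier results of these data known. Genes named were the members, NAT10, listed genes that passed after knockdown, the 3 largest per list between lines and actins. TPM4 transcripts with 5% of counts and the 5 genes closest to TPM4 were named as well. The epithelial and smooth muscle markers named singly, and TMSB10, were added after their values were seen. The 4 columns of group means were not used. The separate result of 1 list is not reported here.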

Additional observations from a re-analysis of the deposited data

How the results depend on the processing

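With 2 libraries per group, each value rests on few samples, and the depth of 15147805 to 17271336 counts leaves TPM2 and MYL9 at under 60 counts in DLD-1. The 6 genes called between the lines were the same 6 under every alternative run, and 0 of 9 were called in DLD-1 under each. The log2 fold change of TPM4 in SW480 was 0.66 from FPKM with limma, a fit with 1 SW480 shNAT10 library. With each library left out it ran from 0.71 to 0.79 in SW480. In DLD-1 it ran from 0.205 (without DLD-1 shControl replicate 2) to 0.351 (without DLD-1 shControl replicate 1). The cause of each change below was not tested.

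Of the other 9 genes in SW480, 1 was called by the limits of the study (TPM2), against 9.08% of all genes. Without SW480 shNAT10 replicate 2 the log2 fold changes of MYL9 and TPM2 in SW480 were 0.33 and 0.30. For the difference between the lines over all 10, with TPM4 chosen on these values and so no support, DESeq2 called 1 (TPM4), the limits of the study 3, and leaving out a library 0 to 1. Of the 92 other actin system genes in SW480, upper-quartile scaling called 2, keeping every gene with a count 1, SW480 alone 1, FPKM with limma 1, the limits of the study 12 and leaving out a library 0 to 28.

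Over all tested genes in SW480, the main fit called 229, upper-quartile scaling 220, keeping every gene with a count 41 and SW480 alone 29. The limits of the study called 1237, or 9.08%. With a library left out, the count over all tested genes rose and fell as well. A group then holds 1 library, and no conclusion is drawn from those counts. A replicate block called 2 of the 9 (TPM2 and FLNA) and 19 of the 92 in SW480, beside 1472 of all 13619 tested genes. For the difference between the lines it called none of the 9, beside 112 of all tested genes. The labels name no batch shared by same-numbered libraries. Their deviations correlated by 0.128 in SW480 and 0.036 in DLD-1 and by −0.005 to 0.124 between lines, which cannot exclude such a batch. The block is given as an alternative alone and not as a separate result.

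The following signs turned, none for a value that had passed the test with all libraries. With FPKM and limma, TPM1 in SW480 was −0.0551, MYL6 in DLD-1 0.011, and the differences between the lines' effects −0.027 for TPM1, −0.024 for TPM3 and 0.11 for MYL9. With each library left out, the range in SW480 was −0.0402 to 0.0689 for TPM1, −0.14 to 0.33 for MYL9 and −0.0394 to 0.0026 for ACTN1. The value of 0.33 for MYL9 was that without SW480 shNAT10 replicate 2. In DLD-1 it was −0.0425 to 0.0056 for TPM3, −0.149 to 0.0855 for MYL6, −0.0526 to 0.0705 for MYH9, −0.0013 to 0.0303 for ACTN4 and −0.0506 to 0.136 for FLNA. For the difference of effects it was −0.0096 to 0.029 for TPM3 and −0.64 to 0.019 for MYL9 (−0.36 with all libraries), and between the lines −0.051 to 0.0928 for TPM4 and −0.0919 to 0.14 for MYL6.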
